A study of Mus musculus with 6 samples.

Results

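The 27 genes listed as cholesterol synthesis and SREBP2 target genes were followed across nuclei of fasted mouse liver. They were taken by symbol from the 32285 features counted, and all 27 were found. By role they comprise 8 enzymes of the mevalonate and isoprenoid steps (Acat2, Hmgcs1, Mvk, Pmvk, Mvd, Idi1, Fdps and Ggps1). A further 12 enzymes act from squalene to cholesterol (Fdft1, Sqle, Lss, Cyp51, Tm7sf2, Lbr, Msmo1, Nsdhl, Hsd17b7, Ebp, Sc5d and Dhcr7). The rest are the transcription factor gene Srebf2 with its handling proteins Scap and Insig1, and 4 other genes (Stard4, Acss2, Mylip and Tmem97). Whether each gene answers to SREBP2 was not tested. RNA of single nuclei was sequenced from the livers of 6 male mice of the strain C57BL/6JBomTac, 18 weeks old, kept on chow and fasted for 12 hours overnight. Of these, 3 were littermate controls and 3 were labelled as lacking Plvap in hepatic stellate cells, with 1 library per mouse. Both groups carry the source name Plvaptm1.1Salm-Tg(Lrat-cre)1Rshw, to which the labels add B6.126(Cg), and it is not stated whether controls had the Cre transgene. Lrat is a gene of retinoid storage, so a Cre under its control acts mainly in stellate cells. Hepatocytes of the knockout mice were not themselves the target. The words control and knockout follow the labels throughout. No paired litter or batch is given.

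As background, cholesterol is made from acetyl-CoA through mevalonate, isoprenoids, squalene and a series of sterols, and the liver is a main site of this synthesis. When sterol is low in the endoplasmic reticulum, Scap carries the SREBP2 precursor to the Golgi, where it is cut, and the released fragment enters the nucleus and switches on the genes of the whole route together. When sterol is high, the Insig proteins hold Scap back. Fasting is known to lower this programme in liver.

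Promoter windows are shown because the list is named for a regulator, SREBP2, that acts at promoters. RefSeq windows on GRCm38.p6, the build that the files call mm10, run from 250 bases before to 50 bases after a gene's start, and 23 of the 27 members have one. Letters in capitals mark matches on either strand to TCACNCCAC, a form of the sterol regulatory element, or to CCAAT, the site of the factor NF-Y. The first window was chosen because Hmgcs1 alone of the 23 holds TCACNCCAC, and the other 4 belong to members that differed between libraries over all classes, as described further on, so that they were chosen after their values were seen. Each is written 5′ to 3′ along the gene, and the last 50 bases lie at or after the start.
Hmgcs1, chr13:119690101-119690400, plus strand: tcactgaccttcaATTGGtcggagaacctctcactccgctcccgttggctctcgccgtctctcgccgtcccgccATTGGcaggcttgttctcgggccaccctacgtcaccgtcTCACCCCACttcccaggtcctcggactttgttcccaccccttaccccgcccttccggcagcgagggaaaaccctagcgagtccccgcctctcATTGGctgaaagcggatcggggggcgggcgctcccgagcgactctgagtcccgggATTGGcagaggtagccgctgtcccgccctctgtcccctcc
Idi1, chr13:8885356-8885655, plus strand: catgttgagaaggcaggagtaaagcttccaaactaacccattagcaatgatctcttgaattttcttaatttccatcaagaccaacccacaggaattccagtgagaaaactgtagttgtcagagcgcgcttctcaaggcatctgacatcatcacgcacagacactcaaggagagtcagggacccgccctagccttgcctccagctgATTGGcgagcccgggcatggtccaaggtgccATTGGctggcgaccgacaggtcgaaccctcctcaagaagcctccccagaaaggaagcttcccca
Cyp51, chr5:4104648-4104947, minus strand: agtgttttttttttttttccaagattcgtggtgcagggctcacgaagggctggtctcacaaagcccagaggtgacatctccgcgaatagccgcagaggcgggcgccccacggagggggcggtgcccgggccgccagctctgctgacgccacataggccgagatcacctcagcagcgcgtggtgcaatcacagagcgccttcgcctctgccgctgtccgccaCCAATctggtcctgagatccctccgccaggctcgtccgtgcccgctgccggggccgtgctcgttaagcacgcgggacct
Srebf2, chr15:82147019-82147318, plus strand: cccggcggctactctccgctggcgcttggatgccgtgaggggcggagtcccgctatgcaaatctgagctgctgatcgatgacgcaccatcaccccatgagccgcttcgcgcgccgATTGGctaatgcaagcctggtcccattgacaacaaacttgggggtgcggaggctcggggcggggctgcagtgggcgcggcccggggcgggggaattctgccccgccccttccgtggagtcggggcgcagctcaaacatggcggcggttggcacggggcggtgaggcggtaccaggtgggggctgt
Sc5d, chr9:42264251-42264550, minus strand: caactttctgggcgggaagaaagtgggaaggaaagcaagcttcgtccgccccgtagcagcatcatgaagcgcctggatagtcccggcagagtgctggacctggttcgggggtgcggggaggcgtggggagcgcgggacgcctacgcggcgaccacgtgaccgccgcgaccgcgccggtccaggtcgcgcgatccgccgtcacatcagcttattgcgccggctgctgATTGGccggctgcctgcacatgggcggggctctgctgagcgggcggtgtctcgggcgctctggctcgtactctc

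In the window of Hmgcs1, the gene of cytosolic HMG-CoA synthase, the match TCACCCCAC lay from 137 to 129 bases before the start, and 4 CCAAT matches stood around it. Idi1 had 2 CCAAT matches and Cyp51, Srebf2 and Sc5d had 1 each. Over the 23 members, TCACNCCAC was found in 1, against 1.44% of the 27025 genes with a window. CCAAT was found in 21 of 23 members, against 41.1% of all genes, and the GC box GGGCGG in 21 of 23, against 38.2%. The E-box CACGTG was found in 5 of 23 members, against 8.09% of all genes. These are letter matches in one window per start and not measured binding.

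The 6 libraries held from 23153182 to 27199466 UMIs, and 25663 nuclei were kept, of which 69 barcodes occurred in 2 or more libraries. Tests used 7 marker-defined classes with at least 20 nuclei in each library. Vessel endothelial nuclei (68 to 152 per library) and dendritic nuclei (26 to 32) also reached this number and were not tested here. Hepatocyte nuclei numbered 1126, 714 and 989 in the 3 controls and 778, 913 and 698 in the 3 knockouts, at median depths from 9190.5 to 11744 UMIs. Hepatocyte clusters divided by library: 1 cluster was made almost wholly of control 1 and knockout 2, another of control 2, control 3 and knockout 3, and 92.5% of a further one came from knockout 1. Control 1 and knockout 2 therefore stood apart from the other mice, and so did knockout 1. Values without both control 1 and knockout 2 are given only for knockout over control in hepatocyte nuclei. Plvap tags in stellate nuclei were 242, 212 and 240 CPM in the controls against 226, 187 and 154 CPM in the knockouts. The tags come from the 3′ end, and which exons were deleted is not stated in the labels, so that these tags do not check them.

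In hepatocyte nuclei, the 27 members together stood at 1124, 939 and 758 CPM (UMIs scaled to a fixed total of all UMIs of the class) in control 1, control 2 and control 3. In the knockouts they stood at 907, 1533 and 1232 CPM. The highest and lowest mice differed 2.02-fold, and the groups overlapped, with knockout 1 below 2 of the 3 controls. On totals scaled by TMM the spread was narrower. The sums were then 1045, 965 and 846.5 CPM in the controls against 906, 1433 and 1255 CPM in the knockouts. Counting error was small beside this spread, with 95% Poisson intervals from 1509 to 1558 for knockout 2 and from 743 to 774 for control 3. In these and all sums over nuclei, RNA from other cells that entered the droplets is included.

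No member passed the test of knockout over control in hepatocyte nuclei. All 27 were tested in edgeR's quasi-likelihood fit of 13730 genes, none had a Benjamini-Hochberg adjusted p under 0.05, and the lowest adjusted p was 0.999. Over all genes the same fit called 0%, and DESeq2 called 16 genes and no member. At an unadjusted p under 0.05 there was 1 member, Scap, beside 3.45% of all genes. The fold changes leaned upwards: 24 of 27 were above 0 and 3 were below (Dhcr7, Hsd17b7 and Ebp), although with library size alone as the scale all 27 were above 0. Their median was 0.31 (log2), against a median of -0.0025 and 49.6% above 0 over all genes. Without knockout 2 the median was 0.16, without knockout 1 it was 0.49, and without both control 1 and knockout 2 it was 0.21. The plot of fold changes by member shows the sizes beside their errors.

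**Figure D1:**
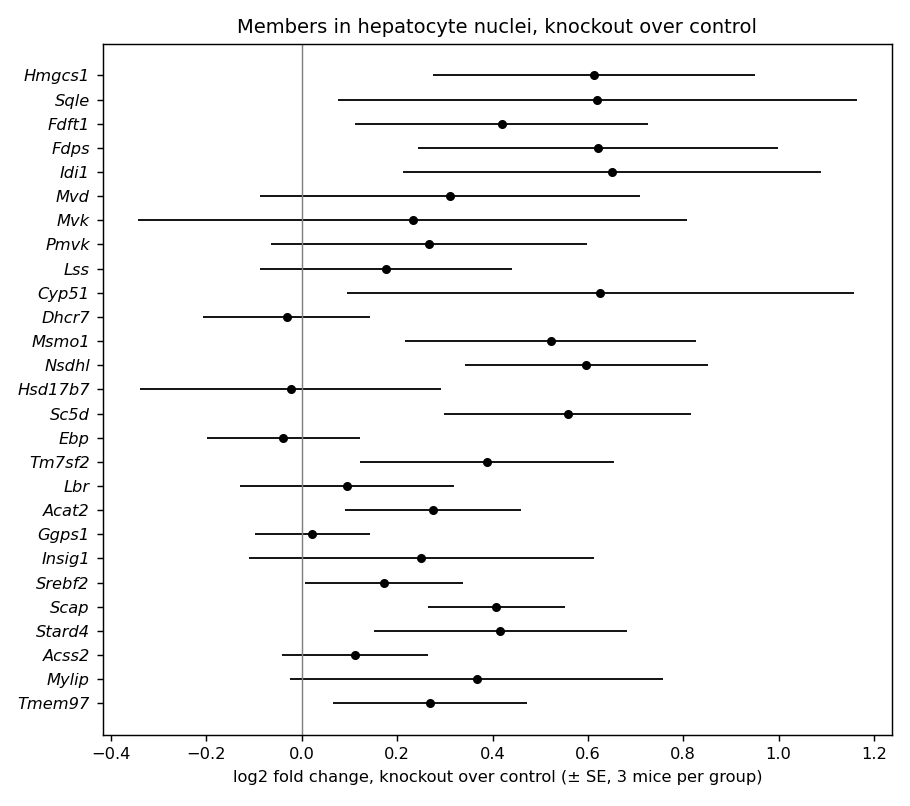
Log2 fold change of each of the 27 members in hepatocyte nuclei, knockout over control, with bars of 1 standard error from edgeR's fit on 3 mice per group. Points run from -0.04 (Ebp) to 0.65 (Idi1), 24 lie above 0, and none passed the adjusted threshold.

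Among the mevalonate and isoprenoid enzymes, all 8 fold changes were above 0, from 0.02 to 0.65, and none passed. Levels of single genes here are CPM on TMM-scaled totals. Hmgcs1 was at 42.0, 39.2 and 31.0 CPM in the controls against 29.5, 74.8 and 67.3 CPM in the knockouts, a log2 fold change of 0.61 (SE 0.337). Fdps, which makes farnesyl diphosphate, was at 22.1, 29.6 and 20.4 CPM in the controls against 18.6, 55.9 and 35.9 CPM in the knockouts, a log2 fold change of 0.62 (SE 0.378). In both genes knockout 2 and knockout 3 were above every control and knockout 1 was below every control. Acat2, the cytosolic acetoacetyl-CoA thiolase at the head of the route, was at 17.2, 18.2 and 15.5 CPM in the controls against 15.9, 22.7 and 22.8 CPM in the knockouts (log2 fold change 0.28, SE 0.186). Idi1, which isomerises isopentenyl diphosphate, was at 40.0, 27.3 and 23.3 CPM in the controls against 21.7, 76.7 and 43.7 CPM in the knockouts (log2 fold change 0.65, SE 0.439). Its level in knockout 2 was the highest and in knockout 1 the lowest of the 6. Ggps1, which makes geranylgeranyl diphosphate for protein prenylation rather than for sterols, was nearly level across the mice, from 62.8 to 68.0 CPM. Mvk, Pmvk and Mvd, the kinases and the decarboxylase that act after mevalonate, had fold changes from 0.23 to 0.31.

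Among the squalene and sterol enzymes, 9 of 12 fold changes were above 0 and none passed. Nsdhl, a dehydrogenase that takes part in removing the C4 methyl groups of sterols, was 1 of 2 members whose 3 knockout mice all lay above the 3 controls. Its levels were 17.9, 17.0 and 16.1 CPM in the controls against 19.8, 36.5 and 20.7 CPM in the knockouts, a log2 fold change of 0.60 (SE 0.255, unadjusted p 0.0504 in edgeR's fit). The gap rests on knockout 2, without which the log2 fold change was 0.25. Of all genes tested, 3.78% had every knockout above every control. Msmo1, the C4-methyl oxidase, was at 57.7, 67.6 and 56.9 CPM in the controls against 47.4, 108.5 and 105.4 CPM in the knockouts (log2 fold change 0.52, SE 0.306). Sc5d, the C5 desaturase, was at 130.1, 75.7 and 73.4 CPM in the controls against 121.5, 164.9 and 124.5 CPM in the knockouts (log2 fold change 0.56, SE 0.259). Control 1 was here within the range of the knockouts, and the other controls were below all 3.

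Squalene synthase, Fdft1, was at 35.4, 41.5 and 31.1 CPM in the controls against 26.7, 57.2 and 60.4 CPM in the knockouts (log2 fold change 0.42, SE 0.307). Squalene epoxidase, Sqle, was at 27.2, 16.4 and 9.89 CPM in the controls against 11.5, 47.1 and 23.4 CPM in the knockouts (log2 fold change 0.62, SE 0.544). Cyp51, the lanosterol demethylase, was at 40.3, 20.8 and 16.9 CPM in the controls against 16.4, 68.1 and 35.9 CPM in the knockouts (log2 fold change 0.63, SE 0.532). Sqle and Cyp51 shared an order in which knockout 2 was highest, followed by control 1 and knockout 3. Lss, Tm7sf2 and Lbr had fold changes of 0.18, 0.39 and 0.09. Dhcr7, which completes cholesterol from 7-dehydrocholesterol, was nearly level, with a log2 fold change of -0.03 (SE 0.176).

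Of the genes that handle SREBP2, Scap was the other member with no overlap of the groups. Scap was at 63.9, 68.4 and 80.3 CPM in the controls against 93.6, 100.3 and 88.1 CPM in the knockouts, a log2 fold change of 0.41 (SE 0.144, unadjusted p 0.0241, adjusted p 0.999 in edgeR's fit). The log2 fold change of Scap ran from 0.34 to 0.51 when each mouse was left out in turn, and was 0.29 without both control 1 and knockout 2. Srebf2 was at 114.1, 95.6 and 94.3 CPM in the controls against 97.7, 132.8 and 112.2 CPM in the knockouts (log2 fold change 0.17, SE 0.166). Insig1 had a log2 fold change of 0.25 (SE 0.361), with 85.1 CPM in control 2 and 99.2 CPM in knockout 3 as its highest values. Stard4, which carries sterol through the cytosol, was at 43.1, 27.4 and 26.4 CPM in the controls against 32.9, 41.3 and 55.3 CPM in the knockouts (log2 fold change 0.42, SE 0.265). The remaining members Acss2 (an acetyl-CoA synthetase), Mylip (a ubiquitin ligase) and Tmem97 had fold changes of 0.11, 0.37 and 0.27.

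**Figure D2:**
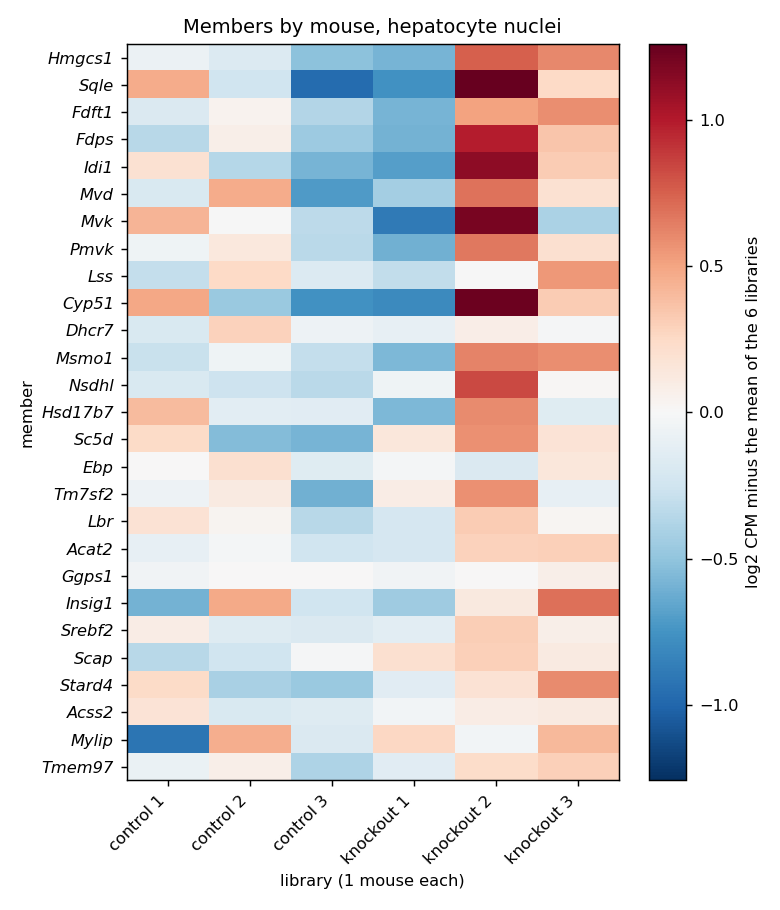
Each member (rows) in hepatocyte nuclei of each mouse (columns), as log2 CPM minus the mean of the 6 libraries, red above and blue below. Knockout 2 is above the mean in 24 of 27 members and knockout 3 in 23, control 3 in 1 and knockout 1 in 4.

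The order of the mice crossed the genotypes. In hepatocyte nuclei 16 of the 27 members were highest in knockout 2 and 7 in knockout 3, while 11 were lowest in knockout 1 and 10 in control 3. The median member there was 0.51 above the mean of the 6 libraries (log2) in knockout 2 and 0.20 above it in knockout 3. It was 0.34 below in control 3, 0.21 below in knockout 1, 0.07 below in control 1 and 0.01 below in control 2. Over all genes the same medians lay between 0 and 0.007.

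Other gene groups of the same nuclei also divided the mice. Insig2, whose protein retains Scap and which has a liver transcript known to rise on fasting, was at 204, 1097 and 1845 CPM in the controls against 468, 148 and 900 CPM in the knockouts (log2 fold change -1.05, SE 0.846, not past the test). Its lowest value was in knockout 2, where the members were highest, and its highest in control 3, where they were lowest. Control 1 was low in Insig2, while its members stood below those of knockout 2 and knockout 3. The 11 lipogenesis genes summed to 1079, 629 and 764 CPM in the controls against 785, 1161 and 599 CPM in the knockouts, so that control 1 and knockout 2 were the highest. The 10 genes of the fasting program summed to 7480, 11450 and 15000 CPM in the controls against 10960, 7361 and 10620 CPM in the knockouts, with the same pair lowest. Abundant hepatocyte transcripts that also occur as free RNA summed to 18660, 25060 and 28840 CPM in the controls against 28610, 25140 and 36610 CPM in the knockouts, and 10 clock genes to between 422 and 636 CPM. Food intake, time of collection and free RNA per mouse were not given, and the part of these groups in the members' levels was not tested.

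The other genes of the pathway did not pass the test either. Of 11 further genes of sterol sensing and SREBP processing, 7 fold changes were above 0 in hepatocyte nuclei. Of 7 further synthesis genes 2 were above 0, of 14 genes of uptake, storage and transport 7, and of 6 genes of sterol disposal 2, while Ch25h had no UMI.

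The members were also summed in the other classes tested. Levels of genes are not set against each other here, since tags from the 3′ end are not corrected for how much of a transcript they sample. In cholangiocyte nuclei the sum was 1298, 735 and 825 CPM in the controls against 776, 1436 and 708 CPM in the knockouts. Control 1 and knockout 2 were the highest, and the ratio of the highest to the lowest mouse was 2.03, from 55 to 132 nuclei per mouse. The 95% Poisson intervals of control 1 (1181 to 1423) and knockout 2 (1318 to 1563) did not meet those of the other 4 mice. In the remaining 5 of the 7 classes the mice lay closer together. Endothelial nuclei ranged from 973 to 1255 CPM, of which Mylip gave 67.7% of UMIs, stellate nuclei from 331 to 440, and macrophages from 454 to 527. T/NK nuclei ranged from 848 to 945 CPM and B nuclei from 930 to 1056.

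**Figure D3:**
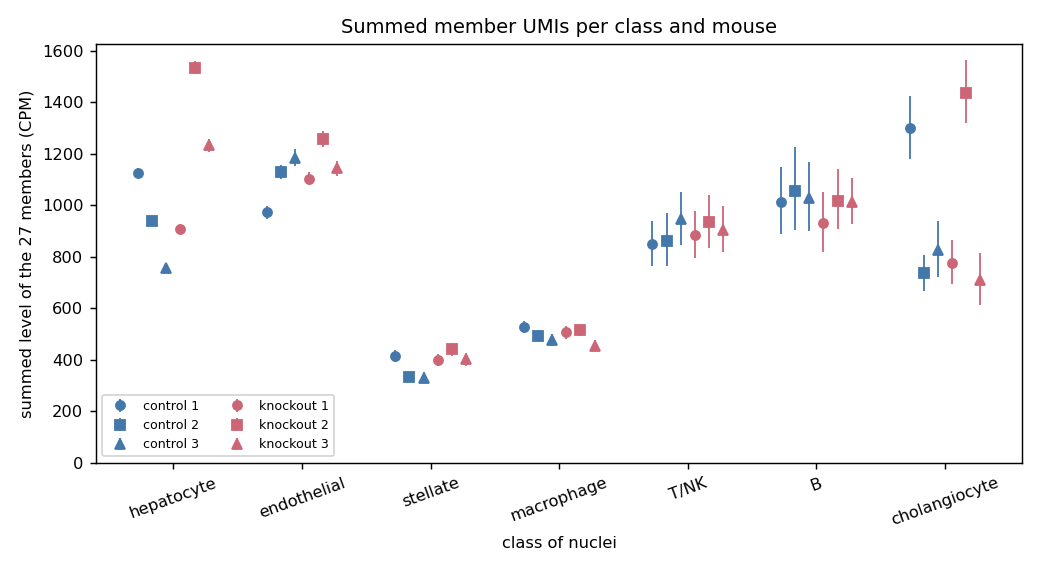
Summed level of the 27 members, in CPM, for each class and mouse, controls blue and knockouts red, with 95% Poisson intervals that cover counting error only. Hepatocyte (758 to 1533) and cholangiocyte (708 to 1436) nuclei spread about as far apart, and the other classes spread less.

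Hepatocyte transcripts abundant as free RNA stood at other ratios than the members. In the 6 other classes these transcripts stood at 8.36% to 28.3% of their hepatocyte level, whereas the members stood at 28.7% to 156%. The members' ratio rests in part on Mylip, which gave 67.7% of member UMIs in endothelial and 33.6% in macrophage nuclei. Mylip gave 31.7% in B, 27.2% in stellate and 19.3% in T/NK nuclei. Unthinned, it had a UMI in 1.69% to 4.34% of hepatocyte nuclei per mouse. In cholangiocyte nuclei the transcripts abundant as free RNA stood at 26.6% of their hepatocyte level in control 1 and 27.2% in knockout 2. In the other mice they stood between 19.7% and 21.9%. The members there stood at 115.5%, 78.3% and 108.8% of their hepatocyte level in the controls against 85.55%, 93.7% and 57.5% in the knockouts. Control 3 was thus above knockout 2 by this measure. Nuclei of at least 1500 UMIs were thinned to 1500, and the 869 shallower nuclei of all named classes were left out. After thinning, Idi1 had a UMI in 2.55% to 10.7% of hepatocyte nuclei per mouse and in 0.163% to 0.87% of stellate nuclei. Unthinned, the shares were 16.8% to 41.7% and 0.162% to 1.52%, at median depths from 9190.5 to 11744 and from 4499 to 5489 UMIs. Sc5d had a UMI in 9.10% to 20.2% of thinned hepatocyte nuclei and in 0.177% to 1.99% of thinned stellate nuclei. Not every member was more frequent in hepatocyte nuclei. Thinned, Mylip had a UMI in 0% to 0.715% of hepatocyte and 8.86% to 17.8% of stellate nuclei. Lbr had one in 0.919% to 2.58% and 2.89% to 4.405%, and Ggps1 in 7.56% to 10.8% and 9.87% to 11.6%.

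Knockout over control called no member in any of the 6 other classes tested. In endothelial nuclei 24 members were tested and 19 fold changes were above 0, with a median of 0.09. The fit called 0.0077% of all genes. The 1 member with an unadjusted p under 0.05 there, beside 4.36% of all genes, was Sc5d, at 7.03, 8.01 and 6.36 CPM in the controls against 8.66, 9.71 and 13.1 CPM in the knockouts (log2 fold change 0.54, SE 0.220, adjusted p 0.9995 in edgeR's fit), and no member had one in the other 5 classes. In stellate nuclei, where Plvap was targeted, 18 were tested, 14 were above 0 and the median was 0.18, beside 0.0499% of all genes called. In macrophages 23 were tested and 12 were above 0, with a median of 0.04 and 0% of all genes called. In cholangiocytes 14 were tested and 5 were above 0, with a median of -0.06 and 0% called. In T/NK nuclei 8 were tested and 4 were above 0 (0.0152% of all genes called), and in B nuclei 5 were tested and 3 were above 0 (0.0614% called). Members left untested had too few UMIs, among them Sqle, Fdft1 and Idi1 in stellate nuclei.

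The difference of the knockout effect between hepatocytes and another class was tested directly. No member passed against endothelial, stellate or macrophage nuclei, with a lowest adjusted p of 1 in edgeR, where 0%, 0.0132% and 0% of all genes passed. Against macrophages, 3 of 27 members had an unadjusted p under 0.05, beside 2.98% of all genes, and none had one against endothelial (3.46% of all genes) or stellate nuclei (3.14%). These were Nsdhl (difference 0.76 log2, SE 0.286), Scap (0.54, SE 0.217) and Cyp51 (1.15, SE 0.470). The median difference over the members, hepatocyte minus other, was 0.14 against endothelial, 0.10 against stellate and 0.20 against macrophage nuclei.

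Whether the mice order alike in every class was then asked with 1 fit over the 7 classes, in which each mouse has a level shared by its classes. This compares libraries and not genotypes, and classes of 1 mouse share a library and its free RNA. In edgeR's quasi-likelihood test, 6 of 27 members differed between libraries after adjustment, beside 12.8% of the 16576 genes tested. The 6 were Idi1 (adjusted p 0.000766), Cyp51 (0.00914), Srebf2 (0.0153), Sc5d (0.0210), Fdft1 (0.0266) and Sqle (0.0494). Knockout 2 was the highest mouse in 20 of 27 members and above the mean in 26, while control 3 was the lowest in 12. The median member was 0.30 above the mean in knockout 2 and 0.12 above in knockout 3, and 0.17 and 0.16 below it in control 3 and knockout 1 (log2).

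The highest shared level was that of Idi1, at 0.89 in knockout 2, 0.16 in control 1, 0.05 in knockout 3, -0.17 in control 3, -0.45 in knockout 1 and -0.47 in control 2 (log2 deviation). Cyp51 was at 0.73 in knockout 2 and 0.34 in control 1, and between -0.48 and -0.10 in the other 4. Sqle was at 0.71 in knockout 2 and -0.73 in control 3. In these 3 genes control 1 and knockout 2 were the highest pair. Fdft1 ran from -0.44 in control 3 to 0.42 in knockout 2, and Sc5d from -0.41 in control 3 to 0.35 in knockout 2. Srebf2 had the narrowest span of the 6, from -0.19 in knockout 3 to 0.30 in knockout 2.

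The call rested on single classes and mice. Without hepatocytes 1 member was left, Srebf2, beside 8.77% of all genes. Without stellate nuclei 3 of 27 were left, beside 9.5% of all genes, and without control 3 also 3, beside 10.8%. Without knockout 2 none was left, beside 10.7% of all genes. Srebf2 was above the mean of the mice in knockout 2 in 6 of 7 classes, by 0.31 in hepatocyte, 0.28 in endothelial, 0.52 in macrophage, 0.19 in T/NK, 0.25 in B and 0.62 in cholangiocyte nuclei (log2), and it was at -0.09 in stellate nuclei. Cyp51 was above the mean in knockout 2 by 1.24 in hepatocyte and 1.15 in cholangiocyte nuclei, but was at -0.46 in endothelial nuclei. By the median member, knockout 2 stood first in hepatocyte, endothelial and cholangiocyte nuclei, behind 1 other mouse in stellate and macrophage nuclei and behind 2 in T/NK and B nuclei. Control 3 stood last in hepatocytes and B nuclei but first in T/NK nuclei, and control 1 stood first in macrophage and B nuclei and last in stellate nuclei. The ranks by the median member thus differed between classes, but some medians lay close together. In macrophage nuclei all mice but control 1 lay between -0.014 and 0.028 (log2). In endothelial nuclei all but knockout 2 lay between -0.036 and 0.013. The T/NK and B medians rest on 8 and 5 members. No test was made of these ranks.

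Most members differed within the hepatocytes themselves, along the lobule. Blood enters the lobule at the portal tract and leaves by the central vein, and hepatocytes are known to divide tasks along that path. Hepatocyte nuclei of each mouse were ranked by the mean level of 8 periportal minus 8 pericentral marker genes, none of them a member, and the lowest and the highest tercile were summed and compared within mouse. Of 27 members, 20 were higher at the periportal end and 0 were lower, beside 12.9% of all 12518 genes higher and 11.5% lower (edgeR's quasi-likelihood test, adjusted p under 0.05). The median log2 fold change of the members was 0.79, against 0.0067 over all genes. Summed, the members made up 533 to 1119 CPM in pericentral nuclei of the 6 mice (median 840), 840 to 1749 in the middle (median 1146) and 893 to 1725 in periportal nuclei (median 1166). The middle and periportal ranges nearly coincided, and the pericentral nuclei were the lower ones in each mouse.

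Of the mevalonate and isoprenoid enzymes 7 of 8 rose towards the portal end. Mvd, the decarboxylase, was at 0.566 to 4.81 CPM pericentrally (median 2.69) and 5.63 to 13.6 CPM periportally (median 7.85), with no overlap and a log2 fold change of 1.64 (SE 0.254, adjusted p 5.96e-05). Idi1 went from 7.81 to 40.7 CPM (median 18.0) to 26.2 to 86.3 CPM (median 45.6), and was higher in 6 of 6 mice (log2 fold change 1.31, SE 0.144, adjusted p 5.63e-06). Fdps had medians of 15.2 and 36.1 CPM, within 5.10 to 33.4 and 19.02 to 70.5 CPM, and a log2 fold change of 1.17 (SE 0.205). Hmgcs1 had medians of 31.0 and 50.4 CPM, within 16.1 to 48.1 and 26.2 to 77.8 CPM, a log2 fold change of 0.71 (SE 0.142), and was higher in 5 of 6 mice. Mvk, within 0.752 to 4.81 and 2.51 to 9.02 CPM, had a log2 fold change of 1.27 (SE 0.279), with medians of 1.20 and 3.68 CPM. Pmvk, within 3.76 to 8.48 and 6.10 to 14.1 CPM, had 0.61 (SE 0.184, medians 5.34 and 8.05 CPM). Both were higher in 6 of 6 mice, as was Acat2 at 0.43 (SE 0.123), whose medians were 16.6 and 22.1 CPM within 13.7 to 22.3 and 19.4 to 30.6 CPM. Ggps1 was the member of this group that did not pass, at -0.13 (SE 0.0786).

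Of the squalene and sterol enzymes 10 of 12 rose. Sqle had the largest fold change of all members, 1.65 (SE 0.272, adjusted p 0.00224), with 1.95 to 29.7 CPM pericentrally (median 8.12) and 13.3 to 57.5 CPM periportally (median 29.7). Dhcr7 did not overlap between the ends, at 6.78 to 12.0 CPM (median 8.60) and 16.3 to 29.4 CPM (median 19.5), a log2 fold change of 1.26 (SE 0.155, adjusted p 4.25e-06). Between the groups of mice Dhcr7 had been among the 3 members with a fold change below 0. Sc5d had the smallest adjusted p, 5.52e-07, with medians of 86.8 and 137.6 CPM within 42.6 to 112.2 and 92.6 to 192.9 CPM and a log2 fold change of 0.77 (SE 0.0793). Nsdhl rose from a median of 12.4 to 23.1 CPM, within 5.08 to 22.6 and 19.7 to 46.0 CPM, a log2 fold change of 1.12 (SE 0.156, adjusted p 2.53e-05). Cyp51 rose from a median of 16.8 to 37.7 CPM, within 4.69 to 34.5 and 15.1 to 81.8 CPM, a log2 fold change of 1.16 (SE 0.157, adjusted p 5.62e-05). Each of these 5 was higher periportally in 6 of 6 mice.

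Fdft1 rose by 1.24 (SE 0.224), with medians of 23.7 and 57.0 CPM within 11.04 to 33.4 and 31.6 to 73.3 CPM. Msmo1 rose by 1.13 (SE 0.140), with medians of 34.8 and 81.8 CPM within 26.3 to 72.6 and 51.0 to 139.6 CPM. Lss, which closes the sterol rings, rose by 0.79 (SE 0.131), with medians of 10.4 and 16.6 CPM within 7.14 to 15.1 and 11.8 to 28.2 CPM. These 3 were higher in 6 of 6 mice, whereas the remaining calls of the group were weak. Ebp, the sterol isomerase, rose by 0.30 (SE 0.107, adjusted p 0.0451) in 5 of 6 mice, with medians of 31.5 and 36.7 CPM within 23.2 to 32.3 and 29.9 to 48.2 CPM. Tm7sf2, a C14 sterol reductase, rose by 0.50 (SE 0.181, adjusted p 0.0486) in 4 of 6 mice, with medians of 7.43 and 11.9 CPM within 6.23 to 10.3 and 5.91 to 17.5 CPM. Both, and Pmvk, lost the call when the nuclei were cut at the median of the score instead. Lbr, the other C14 reductase, and Hsd17b7 did not pass, at 0.05 (SE 0.287) and 0.11 (SE 0.0965).

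Srebf2 itself was higher at the portal end in every mouse, at 46.9 to 96.7 CPM pericentrally (median 75.1) and 115.2 to 156.2 CPM periportally (median 123.7), with no overlap (log2 fold change 0.83, SE 0.107, adjusted p 8.29e-05). Insig1 went from 27.2 to 60.0 CPM (median 38.0) to 48.1 to 120.4 CPM (median 68.9), a log2 fold change of 0.99 (SE 0.111, adjusted p 5.55e-06), in 6 of 6 mice. Scap did not pass, at 0.20 (SE 0.0807, adjusted p 0.0832). Of the remaining members only Stard4 was called, at 1.12 (SE 0.247, adjusted p 0.0155 in edgeR's fit). Its medians were 20.8 and 44.5 CPM, within 7.81 to 40.0 and 35.2 to 61.2 CPM. Acss2 was level, at 0.01 (SE 0.0772), and Mylip and Tmem97 were at -0.30 (SE 0.263) and -0.06 (SE 0.166).

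**Figure D4:**
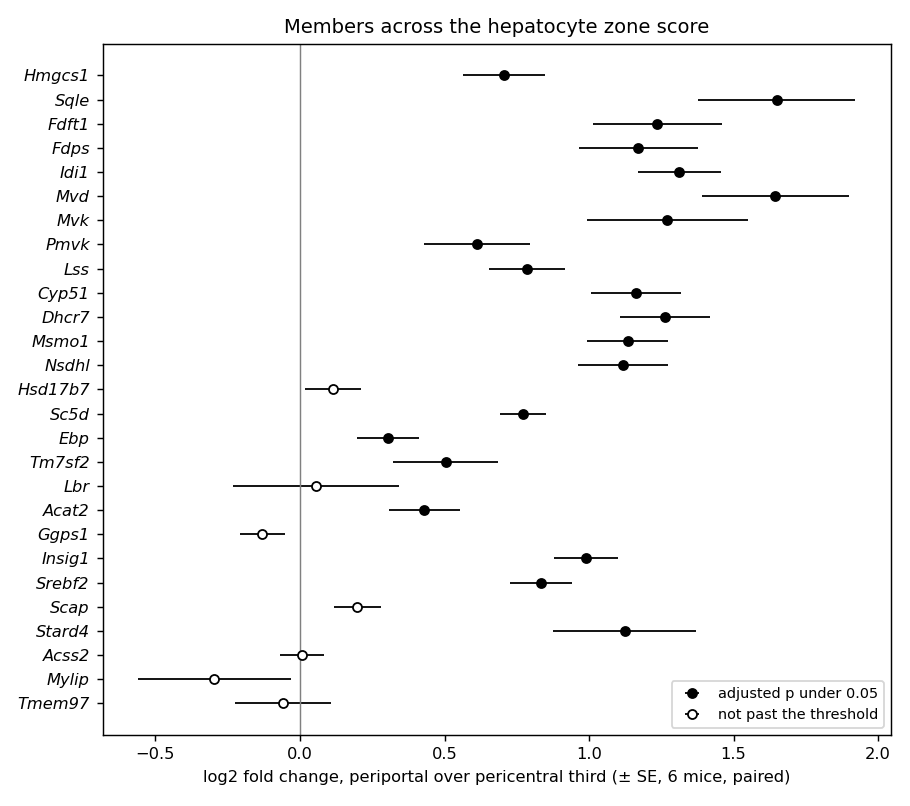
Log2 fold change of each of the 27 members, periportal over pericentral tercile of hepatocyte nuclei, with bars of 1 standard error from edgeR's fit paired within 6 mice. Filled points (20) passed the adjusted threshold, all to the right of 0, up to 1.65 for Sqle, and open points (7) did not.

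Other genes of the pathway, from lists that hold no member, did not all follow. Pdss1, which builds the side chain of ubiquinone, was higher periportally by 0.43 (SE 0.115). Of the genes of uptake, storage and transport, Npc1, which moves cholesterol out of lysosomes, was lower at -0.30 (SE 0.0630). Soat2, which esterifies cholesterol, was lower at -0.53 (SE 0.0911). Further genes of the synthesis and uptake lists are not reported here, so the genes shown do not stand for these lists. Of 11 genes of sterol sensing 1 was higher, Erlin1 at 0.33 (SE 0.0721), and 1 lower, Rnf145 at -0.92 (SE 0.165). Of 6 genes of disposal 3 were lower and 0 higher. Cyp7a1, the first enzyme of bile acid synthesis, had medians of 252.7 CPM pericentrally and 2.68 CPM periportally, and Cyp27a1 and Cyp8b1 had fold changes of -1.72 and -0.39 (log2).

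Several other measures moved with the zones. Median depth was 8762 to 11595 UMIs in pericentral and 9202 to 12030 UMIs in periportal nuclei. Abundant hepatocyte transcripts summed to 15050 to 31170 CPM and 20630 to 40410 CPM. The 10 endothelial markers summed to 67.3 to 175 CPM in pericentral and 53.2 to 71.1 CPM in periportal nuclei, none at 0 UMIs, which is at most 0.856% and 0.357% of their level in endothelial nuclei. The 10 macrophage markers summed to 383 to 1086 and 195 to 385 CPM, at most 9.05% and 3.21% of their level in macrophage nuclei. Most of it was C6, a complement gene, at 591 and 165 CPM over all mice. The Kupffer cell marker Clec4f was at 16.7 and 15.98 CPM. Of the rest, Cd5l (9.79 and 7.89 CPM), Vsig4, Adgre1, Marco, Timd4 and Cd163 were also lower periportally. Slc40a1 (48.7 and 67.8 CPM) and Csf1r were higher there. The part of depth in the zone result was not tested. From 19.2% to 30.2% of nuclei per mouse lay within 0.1 of a score limit, so that the terciles are ranges of a score and not separate types.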

How the data were processed

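RNA was counted in liver nuclei of 6 mice, 1 library each. The kit was the 10x Chromium 3′ chemistry in version 3.1, per the labels. The deposited matrices hold UMI counts per gene and barcode that the authors made with Cell Ranger 7.0.1 on mm10, per the submitters' processing notes, while the file headers name version 7.1.0. No source used here says whether intronic reads or strand were counted. Members that overlap other counted genes (Hmgcs1, Fdft1, Lss, Cyp51, Tm7sf2, Lbr, Ggps1 and Acss2 in GENCODE M21, which held 32158 of 32285 features) could thus share reads with them.

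From 27297 barcodes, nuclei with at least 500 genes, 1000 UMIs and under 5% mitochondrial UMIs were kept (26467), and 804 scrublet doublet calls were removed (scanpy 1.11.5). Leiden clusters (leidenalg 0.10.2, resolution 1, 3000 variable genes without Plvap, 30 components, 15 neighbours) were named from marker lists, and names rest on this rebuilt annotation. Portal mesenchymal nuclei were too few in some libraries to test. Counts were summed per mouse and class and tested with edgeR 4.0.16 (quasi-likelihood, TMM, filterByExpr, robust) in R 4.3.3, and p-values were adjusted by Benjamini-Hochberg over all genes of a fit at 0.05. The library test used class and library as terms, and the zone test library and zone. The edgeR fits for knockout, library, zone and class by genotype were tried on simulated counts with known fold changes. Replicate numbers only name mice. Nothing says that mice shared a litter number or a batch.

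Every member is accounted for. Values per mouse, or between zones the lowest, median and highest of the 6 mice, are given for members past the threshold in any fit, the 8 with the smallest p between genotypes in hepatocytes and the 6 with the smallest p in the library and the zone fits. Some genes of the pathway lists are not reported here. Members and lists were chosen with earlier results of these data known. Alternatives were DESeq2 1.42.0, its size factors, library size alone, no filter, leaving out mice or classes, doublets kept, clusters without pathway genes, thinning to 1500 UMIs and zones cut at the median score.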

Additional observations from a re-analysis of the deposited data

How the results depend on the processing

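No member passed the test of knockout over control in any of the 7 classes tested under any alternative fitted. In hepatocytes the median log2 fold change of the members stayed above 0, from 0.16 to 0.49 when each mouse was left out, and was 0.28 with doublets kept, 0.30 with clusters built without pathway genes and 0.36 with nuclei thinned. The count of members that differed between libraries moved most. From 6 of 27, beside 12.8% of all genes, it became 1 without hepatocytes (8.77%) and 3 without stellate nuclei (9.5%). It ran from 0 without knockout 2 (10.7%) to 6 when each mouse was left out, with 3 without control 3 (10.8%). Other settings gave from 4 to 9, beside 7.73% to 13.8% of all genes. In the zone fit 20 calls became 17 to 21, none lower periportally. Over all genes and both directions, calls of the zone fit ran from 2446 to 3270 under these settings, against 3053. Weak single calls were lost under some of these, namely Pmvk, Ebp, Tm7sf2, Acat2 and Stard4. No class by genotype difference was called for any member under any alternative fitted. No paired analysis was possible because the labels give no replicate numbers, and those used here only name mice. Lymphocyte and cholangiocyte sums hold few member UMIs, from 175 to 541 per mouse.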
